A study of Mus musculus with 8 samples.

Results

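Glutathione S-transferases (GST), UDP-glucuronosyltransferases (UGT) and cytosolic sulfotransferases (SULT) are the conjugation enzymes of the liver. Members were taken by gene symbol from the names Gst, Mgst, Ugt1 to Ugt3 and Sult, and 67 symbols of the 55487 genes in the table matched. Of these, 47 had 40 or more counts summed over the 8 libraries and are described here: 21 GST, 17 UGT and 9 SULT genes. Expression was measured by poly(A) RNA sequencing of mouse liver. One group of 4 libraries came from mice gavaged with 17 mg of potassium sorbate, a common food preservative and the salt of an unsaturated fatty acid, and the other group of 4 from mice gavaged with water (control). Both groups were males of the inbred strain C57Bl/6J, about 10 weeks old, and livers were taken 4 hours after gavage. Each value below comes from whole liver, where fewer cells of a type and less RNA per cell cannot be told apart.

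Conjugation makes small lipophilic molecules more soluble so that they can leave the hepatocyte into bile or blood. GSTs attach glutathione to electrophiles, UGTs of the 1A and 2 subfamilies attach glucuronic acid from UDP-glucuronic acid to bilirubin, steroids, phenols and drugs, and SULTs move a sulfuryl group from the donor PAPS to phenols, steroids, catecholamines or bile acids. Many of these genes are known in liver as targets of the xenobiotic receptors CAR and PXR and of the stress factor NRF2, and several differ between male and female mice.

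The table held between 15773932 and 25844731 counts per library. Values are given as CPM, counts relative to the library's total after TMM scaling, and groups were compared with edgeR's quasi-likelihood test over all 13312 genes that passed its filter on low counts. A gene is said to have risen or fallen where its Benjamini-Hochberg adjusted p was below 0.05. By that rule 6.14% of all tested genes were higher and 6.3% lower with sorbate, 12.4% in all, and the median log2 fold change over all tested genes was −0.02. The library control 2 stood apart from the other controls: limma's quality weight was lowest for it at 0.309, and the first surrogate variable was 0.08 to 0.30 in the sorbate libraries, 0.47 in control 2 and −0.53 to −0.37 in the other controls. Results of members that move with control 2 are therefore given with and without it, as are counts for several gene lists. With control 2 left out, 15.1% of tested genes were higher and 14.1% lower, and with 1 surrogate variable in the model 2.35% and 2.2%. Apart from control 2 that variable separated the groups, so a call lost with it does not show that a gene was unchanged. On the same variable control 2 lay on the side of the sorbate libraries. A call gained by leaving out control 2 therefore does not show by itself that a gene changed. Other rules used below call other shares of all genes. At an unadjusted p below 0.05 edgeR had 14.2% higher and 15.3% lower, DESeq2 called 7.86% higher and 8.21% lower, and limma-voom with quality weights 14.8% higher and 14.6% lower. Counts of members under these rules are to be read against those shares.

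Of the 47 members, 45 passed the filter on low counts and 2, Sult2a1 and Ugt1a10, did not. Among the 45, 7 rose with sorbate (15.6%) and 1 fell (2.22%). The genes that rose were the glutathione transferases Gstt2, Gsta2, Gsto1 and Gstp2, the glucuronosyltransferases Ugt1a6a and Ugt1a1, and the sulfotransferase Sult1c2, by 1.56-fold to 3.30-fold. The gene that fell was the estrogen sulfotransferase Sult1e1. The log2 fold change was above 0 in 32 of the 45 members (71.1%), with a median of 0.41, where 47.8% of all tested genes were above 0. In 7 members all sorbate libraries lay above all control libraries (15.6% of members, 9.42% of all tested genes), and in 2 all lay below (4.44% of members, 8.32% of all tested genes). Without control 2 the test called 25 members, 21 higher (46.7%) and 4 lower.

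**Figure D1:**
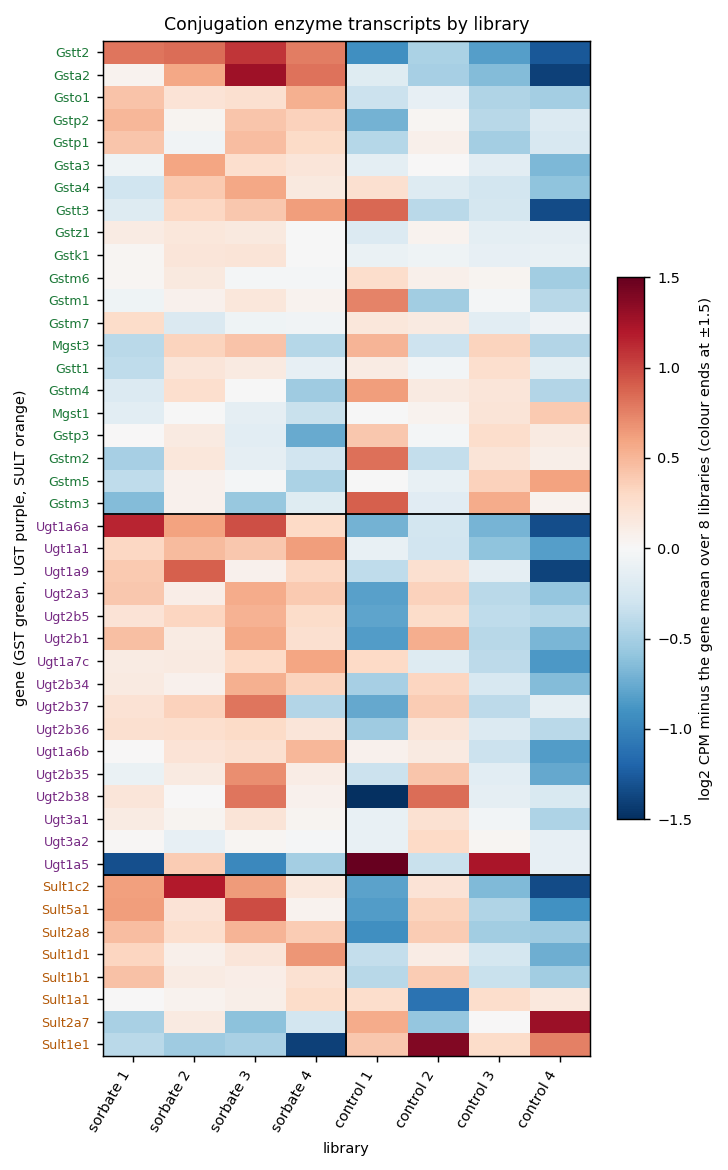
Heat map of the 45 tested members (rows, by family and then by fold change) in the 4 sorbate and 4 control libraries (columns); colour is the log2 CPM of a library minus the mean of that gene over the 8 libraries. Control 2 resembles the sorbate columns over most UGT2 rows and in Sult2a8, and stands apart from all other columns in Sult1a1.

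The promoters of some members are shown first, because several of these genes lie side by side and the data bear on how neighbours moved. They were read from the RefSeq promoter table on GRCm38.p6, from 250 bases before to 50 bases after the transcript start, in the direction of the gene. An entry was found for 41 of the 47 members; Gsta4, Gstt2, Sult2a1, Sult2a7, Ugt1a6b and Ugt3a2 had none. Ugt1a6a, Gsta2 and Sult1e1 are shown as called members with the largest rise or fall, while Ugt1a1 and Ugt2b1 were added after their values were seen. Of these Ugt2b1 was not called. Capitals mark a motif: in Ugt1a6a (chr1:88134559-88134858, plus strand) and Ugt1a1 (chr1:88211709-88212008, plus strand) the HNF1 half-site, read on the other strand, and in Ugt2b1 (chr5:86926454-86926753, minus strand) the D-box, also on the other strand. Gsta2 (chr9:78347096-78347395, minus strand) and Sult1e1 (chr5:87591562-87591861, minus strand) held none of the letters searched. The called members Gsto1, Gstp2 and Sult1c2, which are not shown, also held none.
Ugt1a6a: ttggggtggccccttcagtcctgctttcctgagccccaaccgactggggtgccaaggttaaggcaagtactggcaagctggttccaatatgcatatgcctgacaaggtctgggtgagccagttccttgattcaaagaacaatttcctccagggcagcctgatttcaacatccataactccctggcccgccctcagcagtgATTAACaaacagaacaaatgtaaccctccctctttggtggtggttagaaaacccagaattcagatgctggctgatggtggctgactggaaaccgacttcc
Ugt1a1: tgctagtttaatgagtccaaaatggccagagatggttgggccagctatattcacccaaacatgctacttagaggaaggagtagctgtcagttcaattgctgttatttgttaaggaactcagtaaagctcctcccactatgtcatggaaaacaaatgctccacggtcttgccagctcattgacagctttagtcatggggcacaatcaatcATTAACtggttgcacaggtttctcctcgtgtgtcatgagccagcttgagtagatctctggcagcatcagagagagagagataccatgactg
Ugt2b1: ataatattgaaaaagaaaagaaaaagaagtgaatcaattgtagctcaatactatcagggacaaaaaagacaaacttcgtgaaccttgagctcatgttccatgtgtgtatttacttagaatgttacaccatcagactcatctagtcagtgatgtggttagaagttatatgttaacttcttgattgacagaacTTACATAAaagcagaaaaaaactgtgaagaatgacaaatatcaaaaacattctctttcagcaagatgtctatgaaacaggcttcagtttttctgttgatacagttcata
Gsta2: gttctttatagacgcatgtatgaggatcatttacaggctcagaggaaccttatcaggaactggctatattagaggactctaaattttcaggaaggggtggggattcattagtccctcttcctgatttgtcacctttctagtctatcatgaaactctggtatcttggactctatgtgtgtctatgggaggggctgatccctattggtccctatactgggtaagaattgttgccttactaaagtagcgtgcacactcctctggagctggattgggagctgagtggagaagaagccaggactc
Sult1e1: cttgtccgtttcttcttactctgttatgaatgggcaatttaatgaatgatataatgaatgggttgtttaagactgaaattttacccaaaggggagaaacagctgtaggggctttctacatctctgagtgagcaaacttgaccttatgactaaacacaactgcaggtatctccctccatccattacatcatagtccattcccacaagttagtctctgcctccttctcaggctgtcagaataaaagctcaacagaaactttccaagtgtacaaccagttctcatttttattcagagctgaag

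The HNF1 half-site was searched on both strands as GTTAAT, a choice made after the promoters had been seen. It began 50 bases before the start of Ugt1a6a and 41 bases before that of Ugt1a1. It was present for 9 of the 41 members, in 9 of their 51 promoters, and in 7.1% of all 32851 promoters in the table. These members were Gsta3, Sult1a1, Sult1d1, Ugt1a1, Ugt1a6a, Ugt1a9, Ugt1a10, Ugt2a3 and Ugt3a1. The D-box TTATGTAA is the element bound by the clock output factors DBP, TEF and HLF. It was found for 1 member, Ugt2b1, 59 bases before its start, in 1 of the 51 promoters, and in 0.938% of all promoters. The core of the antioxidant response element, TGACNNNGC, was present for 4 members, in 4 of the 51 promoters, and in 12.4% of all promoters. The 4 members were Gsta3, Gstm5, Gstm7 and Mgst1, none of which was called. The E-box CACGTG was found for 0 members and in 7.15% of all promoters. None of the patterns searched overlap in these windows, and a match describes letters in the window only.

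Among the 21 GST genes 4 rose and 0 fell by edgeR's test. At an unadjusted p below 0.05 it had 6 higher and 1 lower, DESeq2 called 5 higher and 1 lower, and limma-voom 6 and 3. The GST genes had 12 of 21 log2 fold changes above 0 and a median of 0.04.

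Gstt2, a theta class transferase that acts on small electrophiles and peroxides (ENSMUSG00000033318, chr10:75831114-75837424, minus strand), rose most of all members. It stood at 43.7, 44.8, 53.0 and 42.9 CPM in the sorbate libraries, against 13.3, 18.04, 14.2 and 10.4 CPM in the control libraries. The groups were far apart, and control 2 was the highest control. Its log2 fold change was 1.72 (SE 0.16), 3.30-fold, with an adjusted p of 3.5e-04 in edgeR's quasi-likelihood test. It lies beside Gstt1 and Gstt3, and neither neighbour passed the test, with log2 fold changes of −0.09 and 0.39.

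Gsta2, an alpha class transferase of lipid peroxidation products (ENSMUSG00000057933), was a low transcript. It stood at 4.15, 6.00, 9.65 and 7.06 CPM with sorbate, against 3.53, 2.85, 2.56 and 1.52 CPM in controls. Every sorbate library was above every control library, although sorbate 1 was close to control 1. It rose by 1.36 on the log2 scale (SE 0.30; edgeR adjusted p = 0.0186). Without control 3, sorbate 3 or sorbate 4 the edgeR adjusted p was 0.0592, 0.057 or 0.0538. Because 17.5% of its 50-base exon windows also occur in other genes, chiefly the predicted gene Gm10639, its reads may be split between copies. Its relatives Gsta3 and Gsta4 had log2 fold changes of 0.48 and 0.42 and did not pass the test.

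Gsto1, an omega class enzyme that in human reduces dehydroascorbate and methylated arsenic species (ENSMUSG00000025068, chr19:47854970-47864790, plus strand), stood at 70.4, 60.5, 61.9 and 76.1 CPM in sorbate libraries. In control libraries it stood at 42.0, 48.0, 38.4 and 36.7 CPM. The groups did not overlap, and the log2 fold change was 0.70 (SE 0.12; edgeR adjusted p = 0.0064). Gstp2, a pi class transferase (ENSMUSG00000038155), stood at 26.2, 19.03, 24.7 and 23.5 CPM with sorbate, against 11.3, 18.8, 13.8 and 15.99 CPM in controls. Sorbate 2 and control 2 all but touched, so the lack of overlap rests on a small gap. Its log2 fold change was 0.64 (SE 0.16; edgeR adjusted p = 0.0293), and the adjusted p was above 0.05 when any library other than control 2 or sorbate 2 was left out, up to 0.0922. Of its 50-base windows 37.2% also occur in its neighbour Gstp1, so the pair cannot be fully separated by counting. Gstp1 itself, the most abundant cytosolic GST per exon length, had 522 ± 79.9 CPM per kb with sorbate and 357 ± 67.2 CPM per kb in controls (SD, n = 4 each), a log2 fold change of 0.55 (SE 0.17; edgeR adjusted p = 0.0572). The third pi gene, Gstp3, was at −0.35 and did not pass the test.

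The most abundant member per exon length was Mgst1, a membrane-bound transferase and peroxidase of the endoplasmic reticulum and the outer mitochondrial membrane. It stood at 3296, 3660, 3358 and 2937 CPM in sorbate libraries and at 3680, 3813, 4227 and 4862 CPM in control libraries. All sorbate libraries lay below all controls, but the highest sorbate and the lowest control library were nearly level, and the log2 fold change of −0.32 (SE 0.15) did not pass the test (edgeR adjusted p = 0.189). Gsta3, an alpha class transferase, had 740, 1159, 916 and 878 CPM with sorbate, against 699, 777, 694 and 482 CPM in controls, and the groups overlapped (edgeR adjusted p = 0.112). Gstk1, a mitochondrial and peroxisomal GST, was above all controls in every sorbate library, with a log2 fold change of 0.20 (edgeR adjusted p = 0.181). Gstz1, the zeta enzyme of tyrosine breakdown, was at 0.22 and did not pass.

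The mu class, whose 7 genes lie within 149.1 kb of each other on chromosome 3, gave 0 calls in either direction by edgeR's test, 1 lower at an unadjusted p below 0.05, 1 lower by DESeq2 and 2 lower by limma-voom. Its log2 fold changes ran from −0.71 (Gstm3) to 0.04 (Gstm6), 5 of 7 were below 0, and the median was −0.27. With library size as the only scaling 4 of 7 were below 0, since Gstm7 moved to 0.10. The median was −0.08 without control 1 and also with 1 surrogate variable, with 4 of 7 below 0 in each. Gstm3 had 8.48, 13.9, 8.97 and 11.7 CPM with sorbate, against 24.8, 11.9, 19.6 and 13.9 CPM in controls, where control 2 was the lowest control. Control 2 was the lowest control in 4 of the 7 mu genes and in 33.8% of all tested genes. Without it Gstm2 and Gstm3 were called lower, at −0.56 and −0.84 (edgeR adjusted p = 0.0471 and 0.0113), while without control 1 they were at −0.16 and −0.49 and not called (edgeR adjusted p = 0.622 and 0.193).

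**Figure D2:**
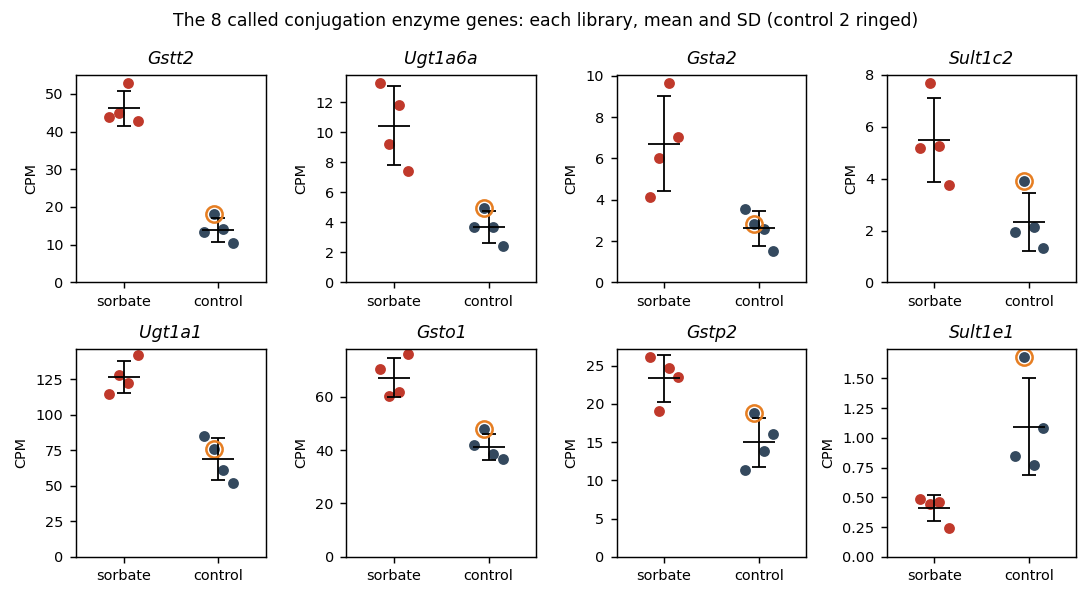
CPM of the 8 called members in each library, sorbate (red) left of control (dark blue), with the mean and SD of each group (n = 4); control 2 is ringed. Gstt2, Ugt1a6a, Ugt1a1 and Gsto1 show clear gaps between groups, while Sult1c2 overlaps because control 2 (3.91 CPM) lies above sorbate 4 (3.77 CPM).

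Among the 16 tested UGT genes 2 rose and 0 fell, both calls from the Ugt1a locus, and the median log2 fold change was 0.48. At an unadjusted p below 0.05 edgeR had 8 higher and 1 lower, DESeq2 called 5 higher and 0 lower, and limma-voom 9 and 1. This locus on chromosome 1 has many first exons, each with its own promoter, joined to a shared set of downstream exons. Ugt1a6a, which conjugates small planar phenols (ENSMUSG00000054545), stood at 13.3, 9.20, 11.8 and 7.42 CPM with sorbate, against 3.68, 4.97, 3.72 and 2.41 CPM in controls. The lowest sorbate library was above the highest control, which was control 2. Its log2 fold change was 1.51 (SE 0.24), 2.84-fold, with an edgeR adjusted p of 0.00483.

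Ugt1a1, the bilirubin-conjugating enzyme (ENSMUSG00000089960), led the Ugt1a genes in level, also per exon length. It had 115, 128, 122 and 142 CPM in sorbate libraries, against 85.0, 75.7, 60.8 and 52.1 CPM in control libraries. The groups did not overlap, and control 2 lay within the other controls. The log2 fold change was 0.89 (SE 0.15; edgeR adjusted p = 0.00654). Only 17.3% of the exon bases of Ugt1a1 and 49.7% of those of Ugt1a6a lie in no other gene, and the antisense gene Gm20528 also overlaps them. How reads of the shared exons were assigned is not given in the sources used here, so the values of single Ugt1a genes are uncertain.

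The other tested Ugt1a genes did not pass the test and did not share 1 direction. Ugt1a9, Ugt1a7c and Ugt1a6b had log2 fold changes of 0.76, 0.51 and 0.44. Ugt1a5 had 4.15, 13.5, 5.31 and 7.24 CPM with sorbate, against 32.4, 8.21, 24.1 and 9.49 CPM in controls. The control libraries fell into a high and a low pair and overlapped with sorbate 2, and the log2 fold change was −1.30 (SE 0.47; edgeR adjusted p = 0.0967). The start of Ugt1a5 lies between those of Ugt1a6a and Ugt1a1. The summed CPM of the 7 Ugt1a members was 193 ± 16.3 with sorbate and 124 ± 31.1 in controls (SD, n = 4 each); the sorbate sums ran from 175 to 210 and the control sums from 83.8 to 159.

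**Figure D3:**
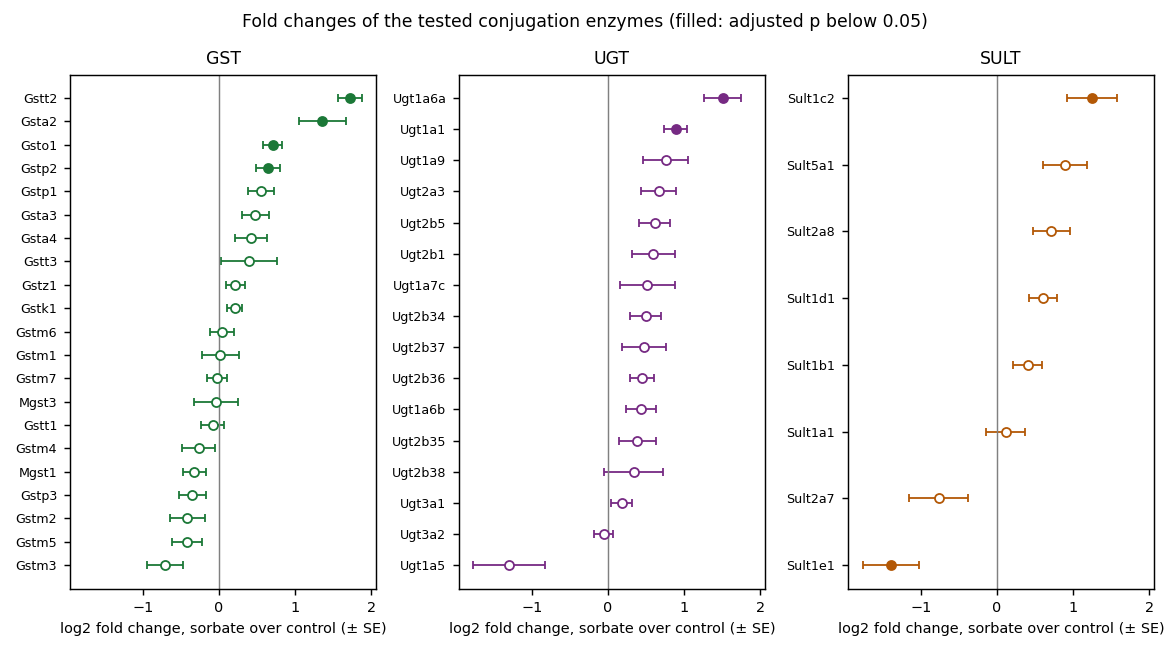
Log2 fold change of sorbate over control with its standard error for the tested members of each family, filled where the edgeR adjusted p was below 0.05. The 8 UGT2 genes lie between 0.34 and 0.66 with none filled, and the mu class genes lie between −0.71 and 0.04.

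The UGT2 enzymes conjugate steroids, bile acids and drugs, and their genes include the most abundant UGTs per exon length, Ugt2b1 and Ugt2b5. All 8 had log2 fold changes above 0, from 0.34 to 0.66 with a median of 0.48, and 0 of 8 were called by edgeR. At an unadjusted p below 0.05 edgeR had 4 of 8 higher, and at its adjusted threshold DESeq2 called 3 and limma-voom with quality weights 5. Ugt2b1 had 1573, 1251, 1696 and 1356 CPM in sorbate libraries, against 639, 1677, 863 and 715 CPM in controls. Control 2 lay within the sorbate range and the other controls far below it. Its log2 fold change was 0.59 (SE 0.28; edgeR adjusted p = 0.185), and 1.00 without control 2 (edgeR adjusted p = 6.81e-04).

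Ugt2b5 repeated this arrangement. It had 612, 666, 761 and 644 CPM with sorbate, against 308, 642, 409 and 394 CPM in controls, and its log2 fold change was 0.61 (SE 0.20; edgeR adjusted p = 0.0739). Control 2 was the highest control in 8 of 8 UGT2 genes, in 26 of the 45 tested members and in 34.1% of all tested genes. Without it 6 of 8 UGT2 genes were called higher, with a median log2 fold change of 0.78 over the 8. With 1 surrogate variable in the model 0 of 8 were called, 7 of 8 were above 0 and the median was 0.14. Ugt2b37 and Ugt2b38, which share 15.0% of their 50-base windows with each other, are uncertain as single genes. The sum over the 8 genes ran from 3360 to 4271 CPM with sorbate and was 3923 CPM in control 2 and 1821 to 2367 CPM in the other controls.

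The 2 UGT3 genes use other sugar donors, UDP-N-acetylglucosamine or UDP-glucose in human. The log2 fold change was 0.18 (SE 0.14) for Ugt3a1 and −0.06 (SE 0.13) for Ugt3a2, and neither passed the test. Ugt3a2 was nonetheless well expressed, at 387 ± 17.4 CPM with sorbate and 403 ± 57.5 CPM in controls (SD, n = 4 each).

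Among the 8 tested SULT genes 1 rose and 1 fell, with a median log2 fold change of 0.51. Sult1c2 (ENSMUSG00000023122, chr17:53829637-53846339, minus strand) had 5.19, 7.69, 5.26 and 3.77 CPM in sorbate libraries, against 1.94, 3.91, 2.13 and 1.33 CPM in controls. Sorbate 4 lay below control 2, so the groups overlapped by that 1 pair. It rose by 1.25 on the log2 scale (SE 0.33; edgeR adjusted p = 0.0335). The adjusted p was above 0.05 in 6 of the 8 fits that left out a library, up to 0.0979, and below it without control 2 (0.00125) or sorbate 4 (0.0469).

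Sult1e1, which inactivates estrogens by sulfation and is low in adult male mouse liver (ENSMUSG00000029272, chr5:87575969-87591594, minus strand), was near the limit of measurement. It had 13, 10, 10 and 4 counts in the sorbate libraries, against 17, 30, 16 and 22 counts in the control libraries. In CPM this was 0.486, 0.445, 0.457 and 0.243 with sorbate, and 0.846, 1.68, 0.774 and 1.08 in controls. The groups did not overlap and the log2 fold change was −1.39 (SE 0.37; edgeR adjusted p = 0.0347). The call was lost when any library other than control 2 was left out, with adjusted p up to 0.0955, and without the filter on low counts (edgeR adjusted p = 0.0517).

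Sult2a8, a hepatic enzyme that sulfates bile acids in mouse, is the most abundant SULT per exon length. It had 1081, 935, 1120 and 1022 CPM with sorbate, against 417, 1024, 546 and 543 CPM in controls. Control 2 fell among the sorbate libraries here as in Ugt2b1. The log2 fold change was 0.72 (SE 0.24; edgeR adjusted p = 0.0786), and 1.06 without control 2 (edgeR adjusted p = 2.12e-04). Sult5a1, Sult1d1, a catecholamine sulfotransferase in mouse, and Sult1b1, which acts on thyroid hormones, did not pass either, with log2 fold changes of 0.89, 0.61 and 0.41. In each of these 3 genes control 2 was the highest control.

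Sult1a1, the main phenol sulfotransferase, behaved otherwise. It had 247, 256, 260 and 297 CPM in sorbate libraries, against 294, 114, 296 and 274 CPM in controls. Control 2 was far below all other libraries, which were level. The log2 fold change was 0.12 with all libraries and −0.11 without control 2, and neither passed the test (edgeR adjusted p = 0.797 and 0.485). With 1 surrogate variable it was 0.79 (edgeR adjusted p = 0.0175). Sult2a7 was at −0.76 and did not pass.

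Per length of annotated exon, levels of the members ran over several orders of magnitude. Mgst1 led with 1646 ± 147 CPM per kb with sorbate and 2059 ± 264 CPM per kb in controls (SD, n = 4 each). Ugt2b1 led the UGTs, with 571 ± 78.7 CPM per kb with sorbate and 378 ± 186 CPM per kb in controls. Sult2a8 led the SULTs, with 317 ± 24.5 CPM per kb with sorbate and 193 ± 81.6 CPM per kb in controls, ahead of Sult1a1 at 176 ± 14.6 CPM per kb with sorbate and 162 ± 58.2 CPM per kb in controls. In controls the gap between Sult2a8 and Sult1a1 was within their spread. Summed over each family, GST transcripts took 6852 ± 450 CPM with sorbate and 6987 ± 263 CPM in controls (SD, n = 4 each). UGT transcripts took 4366 ± 398 CPM with sorbate and 3113 ± 1030 CPM in controls, and SULT transcripts 1503 ± 93.7 CPM with sorbate and 1011 ± 215 CPM in controls. Control 2 held 4609 CPM of UGT and 1321 CPM of SULT transcripts, the highest sums among controls in both families.

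**Figure D4:**
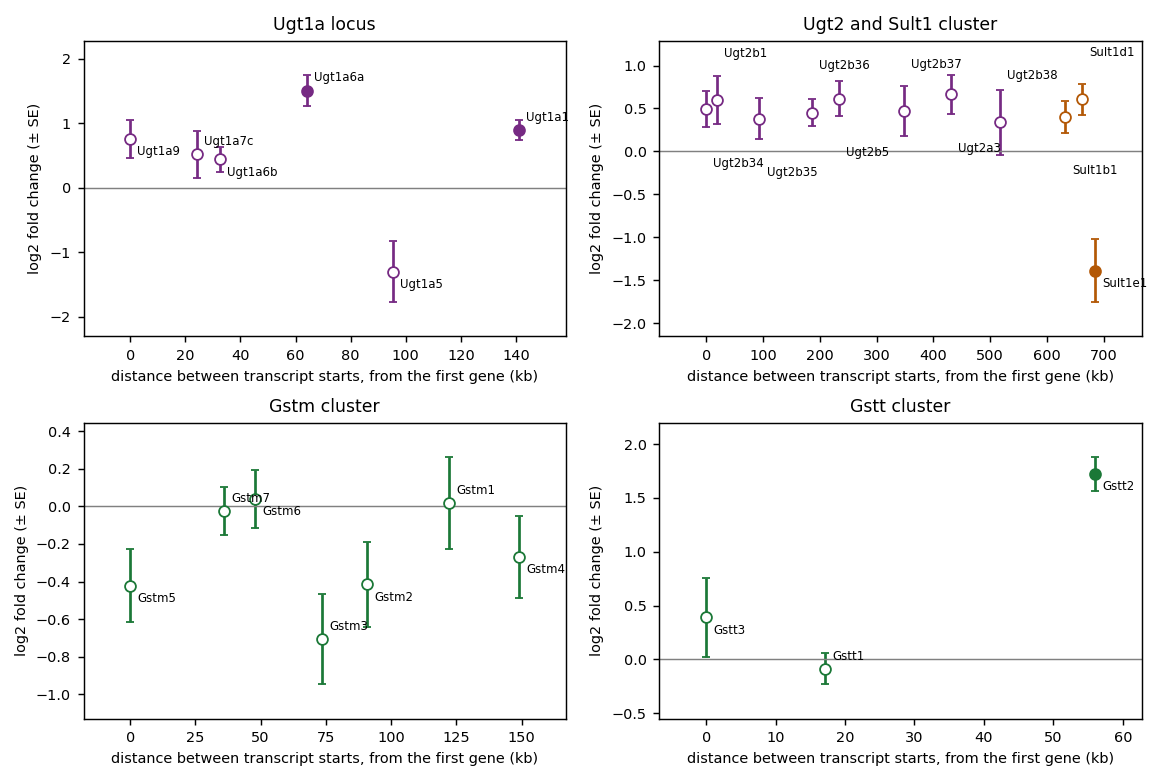
Log2 fold change (± SE, 8 libraries) of sorbate over control against the distance of the transcript start from that of the first gene, for 4 gene clusters; UGT purple, SULT orange, GST green, filled where called. Over 685 kb of the Ugt2 and Sult1 cluster 10 of 11 genes lie above 0, and Sult1e1 at the end lies at −1.39.

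Several members are neighbours. The 8 UGT2 genes, Sult1b1, Sult1d1 and Sult1e1 lie in 1 stretch of chromosome 5, with 685 kb between the first and the last start. In it 10 of 11 genes had log2 fold changes from 0.34 to 0.66 and did not pass the test, and Sult1e1, 22.6 kb from the start of Sult1d1, fell. At the Ugt1a locus the log2 fold changes ran from −1.30 to 1.51 within 141.2 kb. Neighbouring genes that share exon sequence or reads are not independent of each other.

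**Figure D5:**
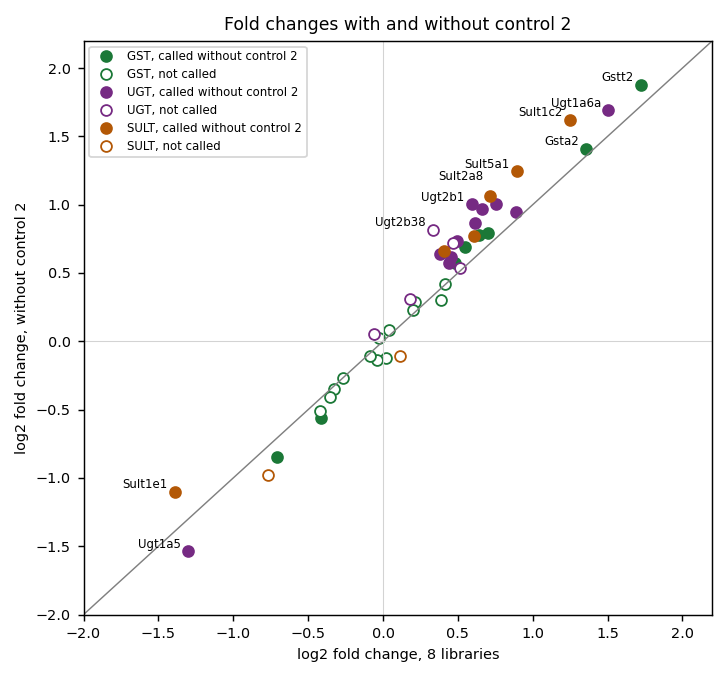
Log2 fold change of the 45 tested members with all 8 libraries (x axis) and without control 2 (y axis), filled where the edgeR adjusted p was below 0.05 without control 2; the line marks equal values. Most UGT2 and SULT genes lie above the line, and Sult1a1 lies at 0.12 on the x axis and −0.11 on the y axis.

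Leaving out control 2 kept all 8 calls and added 17. The added genes were Gsta3, Gstp1, Sult1b1, Sult1d1, Sult2a8, Sult5a1, Ugt1a6b, Ugt1a9, Ugt2a3, Ugt2b1, Ugt2b34, Ugt2b35, Ugt2b36 and Ugt2b5 among the higher ones, and Gstm2, Gstm3 and Ugt1a5 among the lower ones. With the surrogate variable 6 members were called, Gsta2, Gstp2 and Sult1c2 were lost, and Sult1a1 was added. Gstt2, Gsto1, Ugt1a6a and Ugt1a1 were called in each of the 15 alternative fits.

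The members below 40 counts were 4 GST, 4 UGT and 12 SULT genes, and 9 of these 20 had 0 counts in all 8 libraries. Just inside the limit were Sult2a1 with 49 and Ugt1a10 with 64 counts, and just outside it Gsta1 and Ugt1a2 with 39 counts each and Sult2a2 with 38. Sult2a1 and Sult2a2, steroid and bile acid sulfotransferases that are high in female mouse liver, had most of their counts in control 2. For Sult2a1 this library held 36 counts, and for Sult2a2 it held 28. In the other 7 libraries Sult2a2 had 0 to 5 counts. Of the 50-base windows of Sult2a1, 20.9% also occur in Sult2a2. A list of other female-biased liver genes summed to 35.5 CPM in control 2 and to 32.6 to 40.2 CPM in the other controls. The sum of a male-biased list was 27604 CPM in control 2 and 15563 to 22355 CPM in the other controls.

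The genes that supply, carry away and regulate conjugation were described from lists of their own. Of the genes named from them, Ces1d, Arsa, Tpst2, Nr1i3, Por, Ppara, Nfe2l2, G6pdx, Pgd, Tef, Hlf, Inmt, Acsm5 and Cyp2e1 were called in each of the 8 fits without 1 library and with 1 surrogate variable. The others were not, and their values are given beside them. Among 14 tested genes of glutathione synthesis and recycling 0 rose and 1 fell, Ggct, which cleaves gamma-glutamyl peptides, at −0.77 (edgeR adjusted p = 0.0313). Ggct was called in 3 of the 8 fits without 1 library, and its adjusted p was 0.183 with the surrogate variable. The list of UDP-glucuronic acid supply and glucuronide hydrolysis also holds carboxylesterases, and among its 12 genes 1 rose and 1 fell. They were Ces1d, a carboxylesterase and lipid hydrolase, at 1.59 and Pgm2, a phosphoglucomutase of sugar phosphate metabolism, at −0.98. Pgm2 was called in 2 of the 8 fits without 1 library and stood at −0.36 with the surrogate variable (edgeR adjusted p = 0.412). Among 17 genes of PAPS supply and sulfate handling 3 rose and 1 fell. They were the sulfatase Arsa (0.94), the sulfite oxidase Suox (0.49), the sulfate transporter Slc26a1 (0.46) and the protein-tyrosine sulfotransferase Tpst2 (−0.83). Suox and Slc26a1 were called in 1 and 3 of the 8 fits without 1 library, and had adjusted p = 0.21 and 0.0896 in edgeR with the surrogate variable. The median log2 fold changes of these 3 lists were −0.11, 0.11 and 0.05. Without control 2 their calls were 1 higher and 2 lower, 5 and 3, and 4 and 2. With 1 surrogate variable their calls were 0 higher and 0 lower, 1 and 0, and 1 and 1.

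Of 10 tested efflux transporters 3 rose and 0 fell. Abcc2, which moves glucuronide and glutathione conjugates into bile, had 588, 569, 628 and 667 CPM with sorbate, against 273, 505, 320 and 248 CPM in controls. Abcc3, which moves glucuronides back into blood, had 87.9, 116, 110 and 106 CPM with sorbate, against 80.5, 40.6, 51.1 and 34.9 CPM in controls. Neither overlapped between groups, and the log2 fold changes were 0.87 and 1.02 (edgeR adjusted p = 0.0241 and 0.0189). The third was Abcc6 at 0.59. In the 8 fits without 1 library Abcc2 and Abcc6 were each called in 2, and Abcc3 in 5. Without control 2 Abcc2 was at 1.14, Abcc3 at 0.93 and Abcc6 at 0.76, all called. With the surrogate variable Abcc3 was called at 1.29, while Abcc2 at 0.53 and Abcc6 at 0.39 were not (edgeR adjusted p = 0.0551 and 0.117).

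Of 16 tested xenobiotic sensors and partners 5 rose and 0 fell, with a median of 0.23. Nr1i3, which encodes CAR, had 274, 213, 181 and 264 CPM with sorbate, against 48.6, 77.7, 53.6 and 59.8 CPM in controls. The groups were far apart, with a log2 fold change of 1.96 (SE 0.18; edgeR adjusted p = 3.5e-04). Por, the electron donor of cytochrome P450 enzymes, rose by 1.58, the fatty acid receptor Ppara by 0.95 and Nfe2l2, which encodes NRF2, by 0.76. Among 15 tested NRF2 targets outside the transferases 1 rose, Ephx1 (microsomal epoxide hydrolase, 0.90; called in 3 of the 8 fits without 1 library, and at an edgeR adjusted p of 0.143 with the surrogate variable), and 2 fell, the pentose phosphate enzymes G6pdx (−2.19) and Pgd (−1.03).

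The list of D-site clock output factors and their liver targets, which also holds Nr1i3 and Por, had 5 of 6 genes higher and 1 lower. Its counts were 5 and 0 with 1 surrogate variable, and also without control 3, control 4, sorbate 3 or sorbate 4. The clock factors Tef and Hlf rose by 2.01 and 0.97 on the log2 scale. Among the other conjugating enzymes the methyltransferase Inmt rose by 1.39 and the acyl-CoA synthetase Acsm5 by 1.26 on the log2 scale. Of 7 tested genes in the list of relatives outside the name rule 0 passed in either direction by edgeR's test. There were 2 lower at an unadjusted p below 0.05, 0 by DESeq2 and 3 lower by limma-voom. That list also holds Hsd17b2, a hydroxysteroid dehydrogenase and not a transferase, at −0.37 (edgeR adjusted p = 0.0917). Hsd17b2 was called in 0 of the 8 fits without 1 library, and its edgeR adjusted p was 0.106 with the surrogate variable. Without control 2 edgeR called 3 of 7 lower. Of 12 male-biased liver genes 2 rose and 1 fell, and of 5 tested female-biased genes 1 rose and 0 fell. Without control 2 the male-biased list had 6 higher and 1 lower, and the female-biased list 1 and 0. With 1 surrogate variable the male-biased list had 0 higher and 2 lower (median −0.12), and the female-biased list 1 and 0.

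Hepatocyte markers gave 0 calls among 8 tested by edgeR (1 lower at an unadjusted p below 0.05, 0 by DESeq2 and 1 by limma-voom), with a median of −0.03, and their summed CPM ran from 81186 to 107680 with sorbate and from 73457 to 91043 in controls. Of 10 pericentral markers 3 rose and 0 fell, among them Cyp2e1 at 0.87, and of 10 periportal markers 1 rose and 1 fell. Without control 2 both the pericentral and the periportal list had 4 higher and 1 lower. Among markers of other cells the calls were lower with sorbate in 6 of 10 for Kupffer cells (median −0.96), 2 of 2 tested for neutrophils, 2 of 4 for cholangiocytes, 4 of 5 for erythroid cells, 1 of 8 for sinusoidal endothelium and 1 of 2 for B cells, while 0 of 8 passed for stellate cells and 0 of 1 for T cells, also at an unadjusted p below 0.05, by DESeq2 and by limma-voom. Without control 2 the Kupffer list had 9 of 10 lower (median −1.18), with 1 surrogate variable 0 of 10 (median −0.38), and with another library left out 0 to 6. With the surrogate variable the neutrophil, erythroid, endothelial and B cell lists also had 0 calls, and the cholangiocyte list 1. Without control 2 the calls were lower in 7 of 8 endothelial (median −0.555) and 5 of 5 tested neutrophil markers. They were also lower in 4 of 5 erythroid, 2 of 5 tested cholangiocyte and 1 of 2 B cell markers, and 1 erythroid marker was higher. The summed Kupffer markers were 196 to 380 CPM with sorbate, 273 CPM in control 2 and 509 to 659 CPM in the other controls. Summed cholangiocyte markers were 27.9 to 42.8 CPM with sorbate, 52.2 CPM in control 2 and 123.4 to 249 CPM in the other controls. Their part in the results on conjugation enzymes was not tested.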

How the data were processed

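The deposited table holds counts, whole numbers of reads per Ensembl gene, and its values carry no sign of normalization by the authors. The submitters' processing notes name the build GRCm38 and, as tools, HISAT2 2.1.0, Subread, FastQC and edgeR. Annotation release, strand use and other counting settings were not given in the sources used here, so overlapping and antisense genes could not be separated. Groups follow the treatment in the labels. Replicate numbers follow accession order and carry no pairing, and 4 per-sample columns that match no sample were not used. Whether libraries are from separate animals is not labelled, so p-values measure the spread between libraries.

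Genes were filtered by filterByExpr with its count minimum of 10, scaled by TMM and compared over the 8 libraries by the two-sided quasi-likelihood test of edgeR 4.0.16 in R 4.3.3. Adjustment was by Benjamini-Hochberg over 13312 genes, with a threshold of 0.05. The script was tested on simulated data. Alternatives used other scalings and filters, DESeq2 1.42.0, limma 3.58.1, sva 3.50.0 and fits without each library. Exon lengths, coordinates and shared 50-base windows come from GENCODE vM21 on GRCm38. Members, lists and motifs were chosen with earlier results of these data known. Named are all called members and the 2 most abundant of each family, and from the other pathway lists up to 4 called genes with the lowest p. From the cell type lists only Cyp2e1 is named, and from the male- and female-biased lists no gene, although these lists had calls. Hsd17b2 is named although it was not called. Members named beyond these were chosen after their values were seen. One gene of the list of other conjugating enzymes is not reported here, so that list's counts are left out.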

Additional observations from a re-analysis of the deposited data

Results flagged for a closer look

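In 94 groups of 4 libraries, 1 for each member and treatment, the gap of the highest or lowest library to its neighbour was compared with Dixon's 95% critical value for 4 values, which chance passes in about 1 of 20 groups. A library stood apart in 4 groups, no more than that rate would give. Sult1a1 had 113.8 CPM in control 2, where controls 1, 3 and 4 had 274.3 to 295.6 CPM. Sult1b1 had 41.45 CPM in control 2, above the 22.09 to 25.34 CPM of the same 3 libraries. Sult2a1 had 2.011 CPM in control 2, above their 0.0967 to 0.1494 CPM. Sult1e1 was at 0.2434 CPM in sorbate 4, and at 0.4445 to 0.4859 CPM in the other sorbate libraries. The 4 groups are all of SULT genes, and 3 of them are set apart by control 2.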

How the results depend on the processing

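The 8 called members kept their direction in all 15 alternative fits each: of 120 values 94 stayed past the threshold and 26 did not, 22 of them in fits without 1 library. The main counts of 7 members higher and 1 lower became 13 and 2 without a filter on low counts, 14 and 2 with DESeq2, 20 and 5 with limma-voom and quality weights, and 14 and 3 at a threshold of 0.1. Leaving out a library gave 4 to 21 higher and 0 to 4 lower. GST genes (4 higher, 0 lower) became 2 higher with 1 surrogate variable, and the lower count became 1 without a filter, with DESeq2 or at a threshold of 0.1 and 3 with limma-voom; leave-outs gave 2 to 6 higher and 0 to 2 lower. UGT genes (2 higher, 0 lower) became 4 higher and 1 lower without a filter, 5 higher with DESeq2, 9 and 1 with limma-voom, 5 and 1 at a threshold of 0.1, and 2 to 10 and 0 to 1 with a library left out. SULT genes (1 higher, 1 lower) became 2 higher with library size as the scaling, 4 and 0 without a filter, 4 higher with DESeq2 or at a threshold of 0.1, 5 higher with limma-voom, and 0 to 5 and 0 to 1 with a library left out.

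Over all genes 818 were higher and 838 lower. They were 886 and 963 without a filter on low counts, and 1186 and 1239 with DESeq2. The counts were 1300 and 550 with library size as the scaling, where the median log2 fold change stood at 0.11 over all genes. They were 1968 and 1944 with limma-voom, 313 and 293 with the surrogate variable, 1337 and 1414 at a threshold of 0.1, and 332 to 2053 and 357 to 1915 with a library left out, highest without control 2.

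No called member changed sign. Among members not called, values turned with library size as the scaling for Gstm7 (0.095), Gstt1 (0.040), Mgst3 (0.085) and Ugt3a2 (0.061), with limma-voom for Gstm7 (0.061) and Sult1a1 (−0.030), and with the surrogate variable for Gstm2 (0.018), Mgst3 (0.221) and Ugt2b38 (−0.246). With a library left out the ranges that crossed 0 were −0.119 to 0.362 for Gstm1, −0.097 to 0.144 for Gstm6, −0.128 to 0.043 for Gstm7, −0.160 to 0.020 for Gstt1, −0.196 to 0.134 for Mgst3, −0.111 to 0.220 for Sult1a1 and −0.105 to 0.055 for Ugt3a2. The cause was not tested. No paired analysis was possible because the replicate numbers only name libraries. Among the called members Sult1e1 had the fewest counts, 4 to 30 per library.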
